A study of Mus musculus with 9 samples.

Results

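The comparison described here set 3 mice carrying 1 deleted copy of TAAR enhancer 1 (heterozygous) against 3 wild type mice, and asked how far expression across all genes departed from no change when 1 enhancer copy was lost. The groups were taken from the genotype in the sample labels and make up 6 of the 9 samples of the series. The other 3 mice, homozygous for the deletion, entered the fit to estimate the spread and are otherwise used only for a midpoint and side-by-side levels below. RNA was taken from whole main olfactory epithelium (MOE), the sensory lining of the nose, at postnatal day 14 per the labels, with 1 library per mouse.

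TAAR enhancer 1 is a noncoding element between Taar1 and Taar2 at one end of the Taar gene cluster on chromosome 10, and it was removed from the germline by CRISPR-Cas9 genome editing. The heterozygous mice came from 1 established line and were described as littermates of the wild type mice. The strain is labelled C57BL/6, while the study's reporting summary gives its mice a mixed background of C57BL/6J and 129 and gives the TAAR enhancer 1 knockout an older age, and the sources used here leave unsettled which of these describes the sequenced mice. Litter and dissection day are not in the labels, so the p-values below measure only the spread between these mice.

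Trace amine-associated receptors (TAARs) are G protein-coupled receptors that detect volatile amines. With the exception of TAAR1, they are expressed in olfactory sensory neurons (OSNs) of the MOE. A mature OSN expresses 1 receptor gene, usually from 1 allele, chosen from the large odorant receptor (OR) family or from the Taar cluster. Enhancers at receptor clusters take part in this choice, and in OSNs they are bound by factors such as LHX2 and EBF. In bulk tissue, fewer cells expressing a receptor and less RNA per cell cannot be told apart.

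Reads counted in genes ranged from 24951344 to 32631951 per wild type library and from 26493117 to 29599230 per heterozygous library. Levels are given as CPM, read counts scaled by TMM to a common library size, so 3 reads of a gene correspond to 0.0919 to 0.12 CPM in these 6 libraries, a limit that covers counting error only. Markers of mature OSNs were abundant in every library. Omp, olfactory marker protein, measured 3104, 3117 and 3127 CPM in the wild type libraries and 3114, 3045 and 3432 CPM in the heterozygous libraries. Vomeronasal receptor genes, which mark the vomeronasal organ beside the nasal septum rather than the MOE, summed to 67.3 CPM in heterozygous replicate 1 and to between 14.5 and 16.5 CPM in the other 5 libraries. Results that rest on this library are therefore also given without it.

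The sequences just upstream of 4 genes that the results turn on are shown first, as the context of their starts in RefSeq for GRCm38.p6. Taar5 had the largest fitted decrease among Taar genes, and Taar7b and Taar7e are close relatives whose fitted changes had opposite signs. E030002O03Rik, listed in RefSeq as Olfm5, was the only gene called by edgeR. Capitals mark the longest run of bases shared by the windows of Taar7b, Taar7d, Taar7e and Taar7f. The windows hold the 250 bases before the annotated start, which for these Taar genes may be the start of the coding sequence. They lie at chr10:23970456-23970705 on the plus strand for Taar5, at chr10:23999689-23999938 on the plus strand for Taar7b, at chr10:24037364-24037613 on the plus strand for Taar7e and at chr7:104164817-104165066 on the minus strand for E030002O03Rik.
Taar5: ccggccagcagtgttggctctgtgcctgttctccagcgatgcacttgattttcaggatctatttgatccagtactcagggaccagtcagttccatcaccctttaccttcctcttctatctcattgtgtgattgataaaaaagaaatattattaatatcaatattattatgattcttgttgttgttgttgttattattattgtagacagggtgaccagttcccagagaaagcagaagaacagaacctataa
Taar7b: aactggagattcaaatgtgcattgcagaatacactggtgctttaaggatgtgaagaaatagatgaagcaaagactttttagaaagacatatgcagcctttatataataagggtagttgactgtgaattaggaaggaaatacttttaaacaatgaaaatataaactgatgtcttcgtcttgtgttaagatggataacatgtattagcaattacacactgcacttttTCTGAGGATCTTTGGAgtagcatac
Taar7e: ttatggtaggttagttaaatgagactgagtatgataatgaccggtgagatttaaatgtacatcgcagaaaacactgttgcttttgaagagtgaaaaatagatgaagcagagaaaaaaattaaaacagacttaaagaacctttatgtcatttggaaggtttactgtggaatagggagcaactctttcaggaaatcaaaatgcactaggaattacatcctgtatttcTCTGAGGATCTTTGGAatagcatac
E030002O03Rik: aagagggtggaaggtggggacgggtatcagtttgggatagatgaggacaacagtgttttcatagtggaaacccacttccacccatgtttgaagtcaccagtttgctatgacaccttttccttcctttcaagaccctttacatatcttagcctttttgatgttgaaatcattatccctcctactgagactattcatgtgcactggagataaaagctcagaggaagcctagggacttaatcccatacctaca

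The shared run TCTGAGGATCTTTGGA is 16 bases long, began 25 bases before the start in each of these 4 windows and occurred in 4 of the 32851 upstream windows of the table (0.0122%). The window of the fifth Taar7 gene, Taar7a, does not hold it, and the 4 windows were chosen with the sequences known. The table held windows for 11 of the 14 olfactory Taar genes, without entries for Taar4, Taar8a and Taar8c. The letters CCCNNGGG, the core of an EBF site, were in none of the 11 Taar windows and not in that of E030002O03Rik, against 11.8% of all windows and 2.75% of the 944 OR windows. The letters TAATTA, an LHX2-type homeodomain core, were in 1 of the 11, that of Taar8b, against 4.84% of all windows and 18.1% of the 944 OR windows. Both patterns read the same on either strand and were searched on both, and a match or its absence is a description of these letters only. Most Taar gene models, and many OR models, are short enough to hold the coding sequence alone. Their windows may then precede the start codon rather than the start of transcription. The shares over all windows are therefore not a like comparison, and nothing is shown about Taar promoters.

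With 1 enhancer copy lost, expression of most genes stayed close to the wild type level, and a single gene passed the genome-wide test. Of 20213 genes tested with edgeR's quasi-likelihood test, 1 (0.00495%) had a Benjamini-Hochberg adjusted p-value under 0.05, and it was lower in heterozygous mice. At an unadjusted p-value under 0.05, edgeR counted 656 genes (3.25%), 354 of them higher and 302 lower in heterozygous mice. Only 77 genes were under 0.01 and 4 under 0.001. Unadjusted p-values under 0.1 made up 7.55% of the genes, and each later step of 0.1 held between 9.4 and 11% of them. The count of 656 fell to 430 without wild type replicate 3 and rose to 978 without heterozygous replicate 2 and to 915 without heterozygous replicate 3. It was 575 without heterozygous replicate 1, with 296 of the 656 genes still under 0.05 in that fit. DESeq2 counted 392 genes at this cutoff and called 3.

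The size of the departure from no change was small for well measured genes. The fitted log2 fold change of heterozygous over wild type had a median of 0.0033 over all genes tested, and its absolute size had a median of 0.0667. The 95% interval of the change lay within 1.5-fold in either direction for 14422 genes (71.4%), within 1.2-fold for 9753 genes (48.3%) and within 2-fold for 16393 genes (81.1%). For these genes the data bound the change, whereas for the others a change of over 1.5-fold in at least 1 direction was not excluded. Among the 656 genes under an unadjusted p of 0.05 in edgeR, 362 had an interval within 1.5-fold and 184 had a fitted difference over 1.5-fold. The 3 libraries of one genotype all lay below those of the other for 873 genes with heterozygous mice lower (4.32%) and for 882 genes with heterozygous mice higher (4.36%), so both directions were about equally frequent.

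How tightly the change was bounded followed the expression level. In the highest quartile of genes by mean CPM over the 9 libraries of the series, from 55.5 to 6064 CPM, the median absolute log2 fold change was 0.0299, the median half-width of the 95% interval was 0.106 and 99.7% of genes were bounded within 1.5-fold. No gene of this quartile had a fitted difference over 1.5-fold, 0 of 5053. In the third quartile, 99.4% of genes were bounded within 1.5-fold and 1 gene exceeded that size. In the second quartile, from 1.81 to 16.5 CPM, where many receptor genes lie, the share was 83.9% and the median half-width was 0.295. In the lowest quartile, at or under 1.81 CPM, the share was 2.53%, and 1604 of the 1623 genes with a fitted difference over 1.5-fold belonged to it. In 141 genes 1 of the 2 genotypes had no read, and no fold change is given for them.

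**Figure D1:**
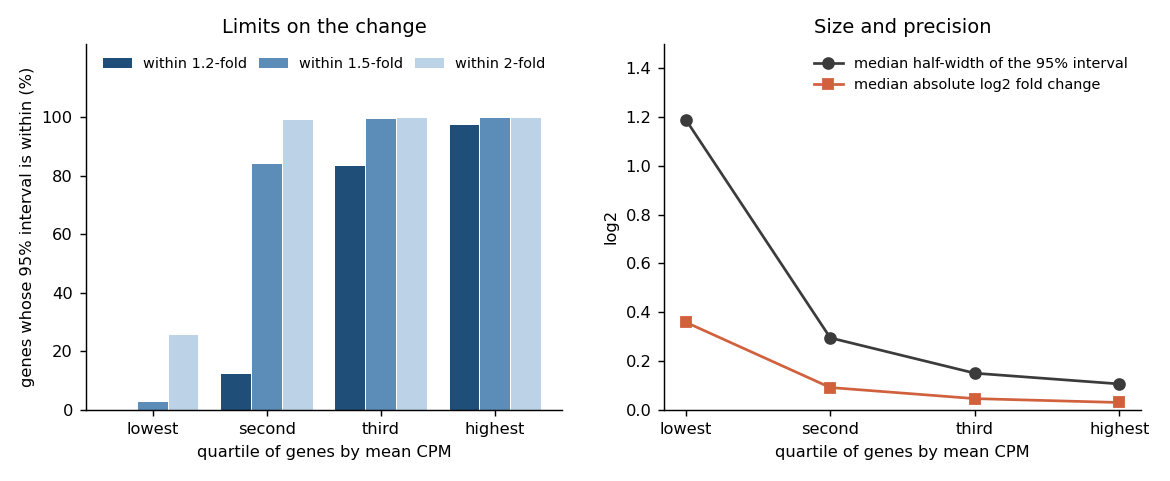
Bars show the percentage of genes, by quartile of mean CPM, whose 95% interval for heterozygous over wild type lay within 1.2-fold, 1.5-fold or 2-fold. Lines show the median half-width of that interval (circles) and the median absolute log2 fold change (squares), which fall from 1.19 and 0.359 in the lowest quartile to 0.106 and 0.0299 in the highest.

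**Figure D2:**
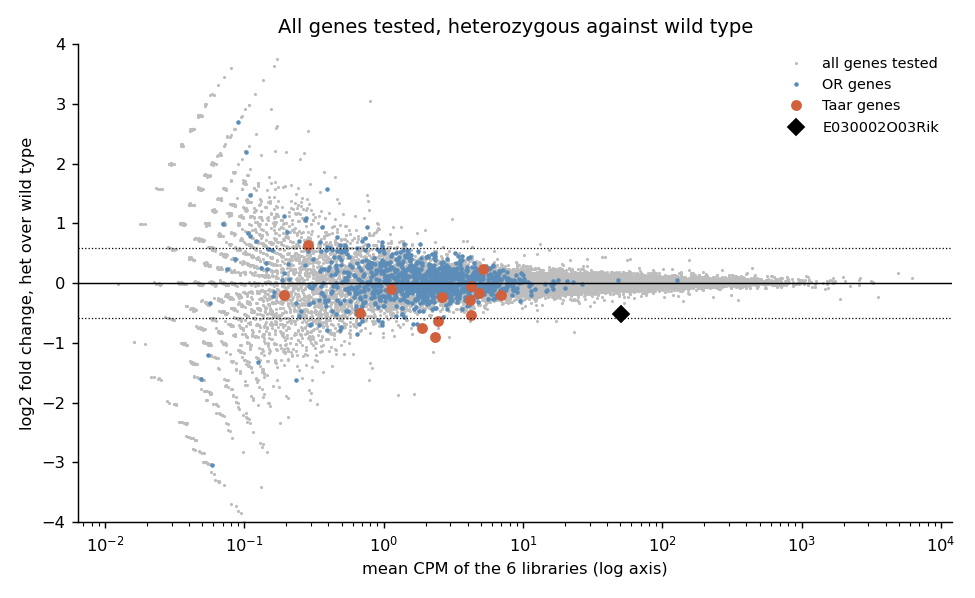
Each point is a gene, with mean CPM of the 6 libraries on a log axis and the fitted log2 fold change of heterozygous over wild type, and dotted lines mark 1.5-fold. The 4 genes beyond the axis and the 142 without a finite fold change are not drawn. OR genes (blue) scatter round 0, 12 of the 14 Taar genes (red) lie below 0, and E030002O03Rik (diamond) lies below the well measured genes of its level.

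Libraries of different genotype were on average no farther apart than libraries of the same genotype. The mean absolute log2 difference over the genes tested was 0.137 to 0.153 between wild type libraries, 0.167 to 0.175 between heterozygous libraries and 0.146 to 0.17 between a wild type and a heterozygous library. The mean distance across genotypes was 0.986 times that within them. Heterozygous mice varied more among themselves than wild type mice. Among 16167 genes at a mean of 1 CPM or more, the median SD of log2 CPM was 0.0854 in heterozygous and 0.0685 in wild type mice, with the larger SD in heterozygous mice for 9855 genes. With 3 mice a group this difference in spread was not tested.

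Among the Taar genes, whose cluster spans chr10:23938572-24109534 in GRCm38, levels were mostly lower in heterozygous mice, most so for Taar5, Taar4 and Taar2 at the end of the deleted enhancer. These 3 genes measured 53.4 to 64.4% of the wild type level, while Taar6 and most Taar7 genes were closer to it. None of the 14 passed the genome-wide test with edgeR, each with an adjusted p of 1, and 4 had an unadjusted p under 0.05, which is 28.6% of the list beside 3.25% of all genes tested. Log2 fold changes were below 0 for 12 of the 14, with a median of -0.22 beside 0.0033 over all genes. The 3 heterozygous libraries lay below all 3 wild type libraries for 5 of the 14 genes and above them for 1, beside 4.32% and 4.36% of all genes. The median without 1 library ranged from -0.29, without wild type replicate 2, to -0.16, without wild type replicate 1, and was -0.27 without heterozygous replicate 1.

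Taar5, a receptor for trimethylamine, measured 2.81, 2.72 and 3.56 CPM in wild type mice and 1.39, 2.08 and 1.39 CPM in heterozygous mice. All 3 heterozygous libraries lay below the lowest wild type library. The log2 fold change was -0.91 (SE 0.23, 95% interval -1.41 to -0.41), with an unadjusted p of 0.00169 and an adjusted p of 1 from edgeR. Taar4, a receptor for phenylethylamine, measured 2.61, 2.5 and 1.97 CPM in wild type and 1.53, 1.29 and 1.39 CPM in heterozygous mice, again without overlap. Its log2 fold change was -0.75 (SE 0.24, edgeR unadjusted p 0.006, adjusted p 1). Taar2, the Taar gene nearest the deleted element, measured 2.61, 3.6 and 2.78 CPM in wild type and 2.32, 1.93 and 1.59 CPM in heterozygous mice. The groups did not overlap, and the log2 fold change was -0.63 (SE 0.22, edgeR unadjusted p 0.0108, adjusted p 1). Taar3 lies between Taar2 and Taar4 and had overlapping groups, 1.08, 1.47 and 0.889 CPM in wild type beside 1.03, 1.25 and 0.981 CPM in heterozygous mice, with a 95% interval of its log2 fold change from -0.75 to 0.57.

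The Taar7 genes, receptors for a range of amines encoded by near-identical copies, differed in sign. Taar7b measured 4.66, 4.73 and 5.68 CPM in wild type and 3.31, 4.08 and 3.04 CPM in heterozygous mice. The heterozygous libraries were all lower, with a log2 fold change of -0.53 (SE 0.18, edgeR unadjusted p 0.00869, adjusted p 1). Taar7e measured 4.7, 4.58 and 4.91 CPM in wild type and 5.38, 5.86 and 5.55 CPM in heterozygous mice, the only Taar gene with all 3 heterozygous libraries higher. Its log2 fold change was 0.24 (SE 0.12, edgeR unadjusted p 0.0614, adjusted p 1). Taar7a, at 4.38, 4.46 and 4.91 CPM in wild type and 3.67, 3.89 and 3.69 CPM in heterozygous mice, did not overlap either and had a log2 fold change of -0.29 (edgeR unadjusted p 0.0563, adjusted p 1). Taar7d and Taar7f overlapped between genotypes, at -0.16 and -0.046. How far these copies can be separated differs between them, since 83.4% of the 100-base stretches of Taar7b are found in no other Taar gene model, but only 66.8% of those of Taar7e and 68.7% of those of Taar7f. Reads that mapped to several places were left out of the counts, so these levels are uncertain.

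Taar6 measured 8.03, 6.84 and 7.31 CPM in wild type and 6.98, 6.31 and 5.92 CPM in heterozygous mice, overlapping by 1 library, with a log2 fold change of -0.20 (95% interval -0.52 to 0.11). Taar9, the last gene of the cluster counted from the enhancer, measured 3.09, 2.69 and 2.67 CPM in wild type and 3.06, 2.23 and 1.89 CPM in heterozygous mice. Heterozygous replicate 1 was as high as wild type there, and the log2 fold change was -0.23 (95% interval -0.67 to 0.21). The 3 Taar8 genes were at most 0.886 CPM in any library, and their intervals reached at least from -0.73 to 0.47, so neither a halving nor no change could be told from the other for Taar8a and Taar8b. Taar1, which is not an olfactory receptor, had 1 read in all 6 libraries and was not tested.

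**Figure D3:**
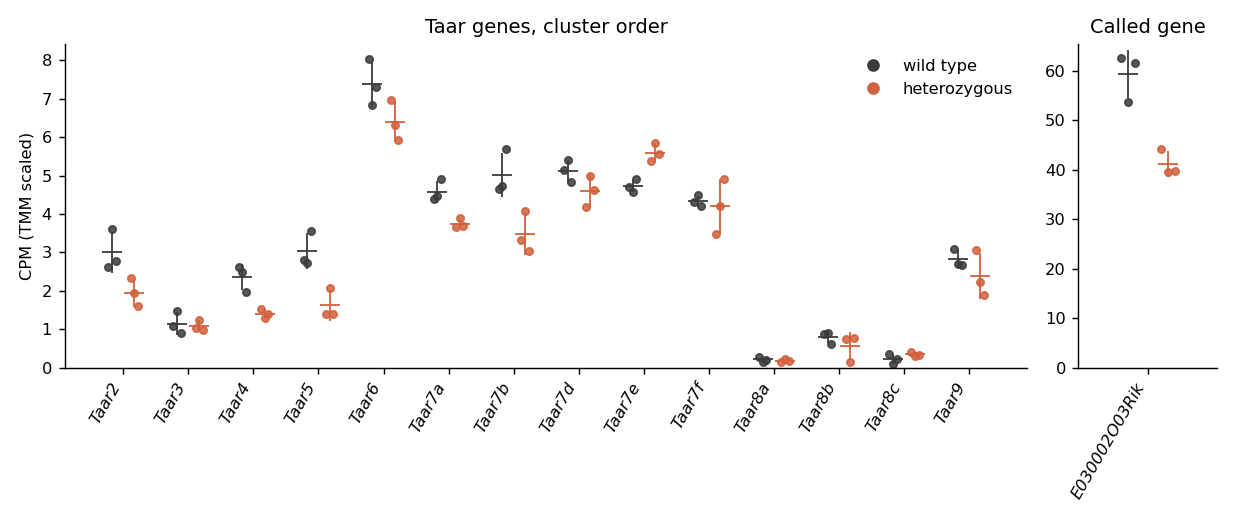
CPM of the 14 olfactory Taar genes in cluster order (left) and of E030002O03Rik (right) in each of 3 wild type (dark) and 3 heterozygous (red) libraries, with the mean (horizontal mark) and SD (vertical line). Groups do not overlap with heterozygous lower for Taar2, Taar4, Taar5, Taar7a, Taar7b and E030002O03Rik, and with heterozygous higher for Taar7e.

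Loss of 1 of 2 equally active alleles would correspond to a log2 fold change of -1, and the 95% intervals were set beside both that value and no change. For 8 of the 14 genes the interval held no change and not a halving, among them Taar3, Taar6, Taar9 and 4 of the 5 Taar7 genes. For 3 genes, Taar2, Taar4 and Taar5, it held a halving and not no change. For Taar8a and Taar8b it held both, and for Taar7b, at -0.91 to -0.16, it held neither. Only 4 of the 14 genes (28.6%) were bounded within 1.5-fold in either direction beside 71.4% of all genes, and all 14 had a mean of at most 7.39 CPM in wild type mice. These are descriptions of intervals at 3 mice a group, not tests of a halving. For genes that homozygous mice still expressed, equal contributions of 2 enhancer copies would not give a halving. Taar6, Taar7a, Taar7d and Taar7f had homozygous means of 3.61, 1.93, 2.92 and 3.81 CPM. Their wild type means were 7.39, 4.58, 5.13 and 4.33 CPM. Taar7e was higher in homozygous mice, at 8.08 beside 4.73 CPM in wild type. For these genes an interval without a halving does not address the loss of 1 copy.

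**Figure D4:**
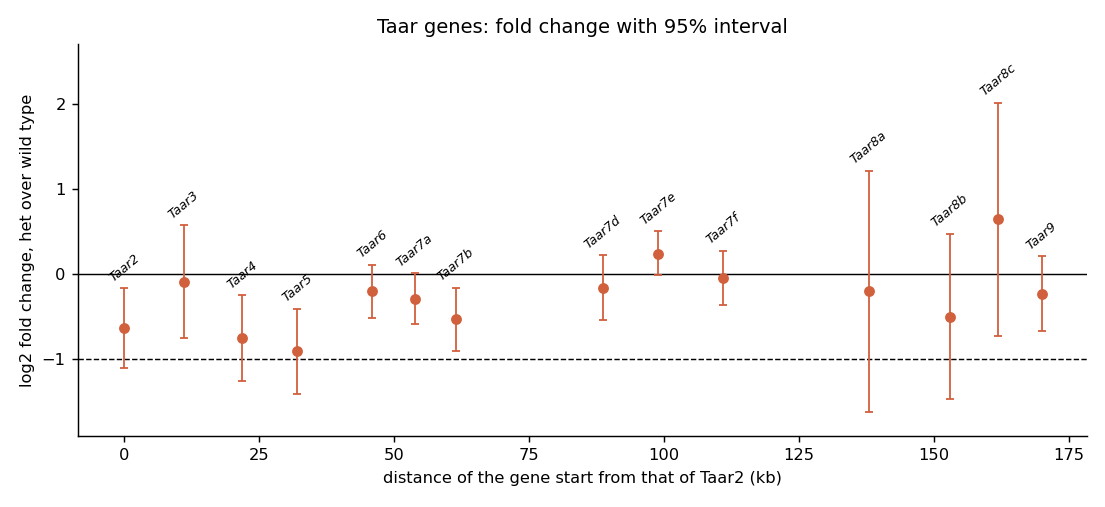
Log2 fold change of heterozygous over wild type for each Taar gene with its 95% interval, against the distance of its start from that of Taar2 in kb. The solid line marks no change and the dashed line a halving, and the intervals of Taar2, Taar4 and Taar5, within 32 kb of Taar2, reach the dashed line without reaching the solid line.

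Summed over stretches of the cluster, the difference was largest at the enhancer end, without a test of one stretch against another. Taar2 to Taar5 together measured 9.54 ± 0.657 CPM in wild type and 6.05 ± 0.628 CPM in heterozygous mice (SD, n = 3 each), a change of -36.5%. Taar6 and the Taar7 genes together measured 31.2, 30.5 and 31.9 CPM in wild type and 27, 29.3 and 27.7 CPM in heterozygous mice, a change of -10.2%. Neither sum overlapped between genotypes, and for both the two-sided exact permutation p was 0.1, the smallest that 3 against 3 mice allow. Taar9 and the Taar8 genes overlapped, at 4.05 ± 0.495 and 3.48 ± 0.763 CPM (SD, n = 3 each), a change of -14.1% (exact permutation p 0.3). Over all 14 genes the wild type sums were 44.9, 44.6 and 44.8 CPM and the heterozygous sums 37.6, 38.8 and 36.3 CPM, so 16.1% of the summed level was missing (exact permutation p 0.1). Without the Taar7 and Taar8 copies, the remaining 6 genes gave a change of -24.8%. Heterozygous replicate 1, the library high in vomeronasal receptor RNA, lay between the other 2 heterozygous libraries in the sum of all 14 genes and of Taar2 to Taar5. It was the lowest of the 3 for Taar6 and the Taar7 genes, at 27 CPM, and the highest for Taar9 and the Taar8 genes, at 4.35 CPM, and for the 6 genes outside Taar7 and Taar8, at 16.3 CPM. The change of the sum of 14 genes without this library was -16.2%.

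Of the genes beside the cluster, those well expressed were bounded near their wild type level and the weakly expressed ones were not. Slc18b1, a vesicular polyamine transporter, had a log2 fold change of -0.067 (95% interval -0.19 to 0.058), Stx7, a syntaxin of late endosomes, one of 0.012 (-0.11 to 0.13) and Moxd1, a monooxygenase-like protein, one of -0.0025 (-0.13 to 0.13). All 3 were bounded within 1.5-fold. Vnn1, a pantetheinase and the nearest tested gene on the enhancer side at 33.2 kb, measured 1, 1.96 and 0.812 CPM in wild type and 0.997, 0.378 and 0.778 CPM in heterozygous mice. Its groups overlapped, with a log2 fold change of -0.83 (95% interval -1.72 to 0.063, edgeR unadjusted p 0.0645, adjusted p 1). Vnn3, of the same gene family and 68.7 kb away, had a log2 fold change of 0.15 (95% interval -0.82 to 1.12). Within 1000 kb of the cluster on either side 15 genes outside it were tested, 7 higher and 8 lower, with a median of -0.0025 and 0 called by edgeR, and 8 of the 15 were bounded within 1.5-fold. The 1 gene among them with an unadjusted p under 0.05, named here after its values were seen, was Ctgf, a secreted matricellular protein 486 kb away, at 72.6, 89.5 and 75.8 CPM in wild type and 104, 84.4 and 89 CPM in heterozygous mice. Its groups overlapped, with a log2 fold change of 0.22 (edgeR unadjusted p 0.0203, adjusted p 1). By chromosome, medians of the autosomes and X lay between -0.0041 on chromosome 4 and 0.0072 on chromosome 18, and the 5 genes tested on chromosome Y had a median of 0.0106.

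The 1 gene called by edgeR was E030002O03Rik, on chromosome 7 at 104153013 to 104164816 in GRCm38, and it was lower in heterozygous mice. RefSeq names it Olfm5, a member of the olfactomedin family of secreted glycoproteins. It measured 62.5, 53.7 and 61.6 CPM in wild type mice and 44.1, 39.5 and 39.8 CPM in heterozygous mice. The lowest wild type library lay above the highest heterozygous library. The log2 fold change was -0.52 (SE 0.070, 95% interval -0.67 to -0.38), which corresponds to 69.5% of the wild type level, with an adjusted p of 0.036 from edgeR. The interval held neither no change nor a halving, and with a required change of 1.5-fold the gene was not called. In homozygous mice, which share these wild type controls, it measured 37.3, 42.5 and 41.9 CPM. The call was lost in edgeR without wild type replicate 1 (adjusted p 0.506), wild type replicate 3 (0.185), heterozygous replicate 2 (0.184), heterozygous replicate 3 (0.258) or homozygous replicate 3 (0.0687), while the log2 fold change stayed between -0.60 and -0.49 in all 17 alternative fits. It was also lost with only the 6 libraries compared (edgeR adjusted p 0.0638) and when replicate number was added as a block (0.0704).

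E030002O03Rik lies inside a cluster of OR genes, and its neighbours as a group were near no change. Within 500 kb on either side 51 other genes were tested, 22 higher and 29 lower, with a median of -0.022 and 0 called by edgeR. The 35 OR genes among them had a median of 0.041, and 18 were higher. The 1 gene of the 51 with an unadjusted p under 0.05, named after its values were seen, was the OR gene Olfr66, at 0.482, 0.641 and 0.425 CPM in wild type and 1.07, 1.06 and 0.879 CPM in heterozygous mice, all higher. Its log2 fold change was 0.94 (SE 0.38, edgeR unadjusted p 0.0237, adjusted p 1).

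After E030002O03Rik, the smallest p-values in edgeR belonged to Ahdc1 and Slc23a2. Ahdc1, an AT-hook DNA-binding protein, measured 51, 49.9 and 48.9 CPM in wild type and 75, 61.5 and 62.5 CPM in heterozygous mice. All heterozygous libraries were higher, with the highest in replicate 1, and the log2 fold change was 0.41 (SE 0.070, edgeR adjusted p 0.315). Slc23a2, a sodium-dependent transporter of vitamin C, measured 248, 236 and 259 CPM in wild type and 203, 224 and 206 CPM in heterozygous mice, without overlap. The fitted log2 difference was -0.23 (SE 0.050, edgeR adjusted p 1). DESeq2 called both of these genes beside E030002O03Rik, with adjusted p-values of 0.000893 for Ahdc1 and 0.0303 for Slc23a2. The edgeR adjusted p of Ahdc1 missed 0.05 in each fit that left out 1 library.

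Besides Ahdc1, the 9 genes with the smallest p among higher ones were Nfatc1, Hapln1, Mir3473g, Dok4, Sgca, Rngtt, Six2, Kctd7 and Vgll4. Hapln1, which links hyaluronan to proteoglycans in cartilage matrix, measured 2.89, 3.54 and 3.75 CPM in wild type and 4.88, 4.84 and 5.78 CPM in heterozygous mice. It was higher in all 3 heterozygous libraries, with a log2 fold change of 0.60 (SE 0.16, edgeR unadjusted p 0.00149, adjusted p 1). Sgca, a sarcoglycan of the muscle membrane, was higher by 0.69 on the log2 scale (edgeR adjusted p 1). Nfatc1, a transcription factor of lymphocytes and osteoclasts, Rngtt, the mRNA capping enzyme, Six2, a homeodomain factor, and Vgll4, a cofactor of TEAD factors, had smaller log2 fold changes, from 0.17 to 0.23. Mir3473g, a microRNA gene, had 0 reads in wild type and 4, 7 and 4 reads in heterozygous libraries, so no fold change is given.

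Besides E030002O03Rik and Slc23a2, and leaving aside Taar5, whose p of 0.00169 equals that of Bcl2l11 to 3 digits, the 8 genes with the smallest p among lower ones were Capn11, Lypd6b, Atp10d, Bcl2l11, Abcc6, Bpifa1, Mllt3 and Cib4. Capn11, a calpain protease, had the largest fitted decrease of these, at -1.87 on the log2 scale (SE 0.43, edgeR adjusted p 1), but wild type libraries spread from 0.735 to 3.25 CPM. Heterozygous libraries measured 0.427, 0.605 and 0.609 CPM, just under the lowest wild type library. Bpifa1, a secreted protein of the airway lining and among the 5 most abundant genes, measured 3592, 4095 and 3769 CPM in wild type and 3436, 3486 and 2869 CPM in heterozygous mice. The groups did not overlap, and the fitted log2 difference was -0.23 (SE 0.061, edgeR adjusted p 1). Bcl2l11, the proapoptotic protein BIM, also had a log2 fold change of -0.23, at 40.7, 39.5 and 38.8 CPM in wild type and 33.4, 33.7 and 34.3 CPM in heterozygous mice. Lypd6b and Abcc6, an ABC transporter, were weakly expressed and had log2 fold changes of -0.66 and -0.75, while Atp10d, a phospholipid flippase, and Mllt3, a subunit of the super elongation complex, had changes of -0.21 and -0.24. Cib4 had 6, 5 and 5 reads in wild type libraries and 0 in heterozygous libraries.

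OR genes, the alternative choice of most OSNs, had a median change close to that of all genes. Of 1070 OR genes tested, 547 were higher and 523 lower, the median log2 fold change was 0.0071 beside 0.0033 over all genes, and 0 were called by edgeR. At an unadjusted p under 0.05 there were 31 OR genes (2.9%) beside 3.25% of all genes, 19 of them higher and 12 lower. The interval lay within 1.5-fold for 468 of them (43.7%) beside 71.4% of all genes. Their summed level was 3022 to 3134 CPM in wild type and 2963 to 3240 CPM in heterozygous libraries, which overlap. Heterozygous replicate 1 had the lowest sum, and without it 636 OR genes were higher and 434 lower, with a median of 0.055. Without heterozygous replicate 2 the median was -0.022, so its sign depended on single libraries.

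The OR genes with the smallest p-values were modest in size. Olfr430 measured 3.05, 2.38 and 2.67 CPM in wild type and 3.74, 4.54 and 3.25 CPM in heterozygous mice, a log2 fold change of 0.51 (edgeR unadjusted p 0.00846, adjusted p 1). Olfr1537 and Olfr788 were also higher in all heterozygous libraries, by 0.42 and 0.43 on the log2 scale. Olfr479, at 2.73, 3.76 and 3.02 CPM in wild type and 1.89, 1.93 and 2.67 CPM in heterozygous mice, had a log2 fold change of -0.56 (edgeR unadjusted p 0.0138, adjusted p 1). Olfr1107 and Olfr392 were lower by -0.56 and -0.43. All 6 had groups that did not overlap. Over all OR genes tested this held for 49 with heterozygous mice higher (4.58%) and 25 with them lower (2.34%), beside 4.36% and 4.32% of all genes.

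Genes of the OSN itself lay close to their wild type level. All 20 mature OSN genes, which encode the olfactory signalling cascade and its partners, were bounded within 1.5-fold, 17 of them were higher and 0 had an unadjusted p under 0.05, with a median log2 fold change of 0.036. Omp had a log2 fold change of 0.037 (95% interval -0.060 to 0.13). The 21 genes that take part in receptor choice, such as those for LHX2, LDB1 and EBF factors and for heterochromatin enzymes, had a median of 0.013, with 15 higher and all bounded within 1.5-fold. With all libraries 6 of 12 immature OSN genes were higher, and 8 of 12 progenitor genes were lower with a median of -0.010. All were bounded within 1.5-fold and 0 were under an unadjusted p of 0.05. Without heterozygous replicate 1, 10 of the 12 immature OSN genes were higher, with a median of 0.017. In that fit all 20 mature OSN genes were higher, with a median of 0.059, and 8 of 12 progenitor genes were still lower. Of the non-canonical olfactory receptor genes, such as those of the Ms4a family and guanylate cyclases, 13 were tested, 9 were higher and 0 had an unadjusted p under 0.05.

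Genes of other cell types of the tissue differed by small amounts, with 0 members of any list called by edgeR. Sustentacular genes, the supporting cells of the epithelium, had a median of -0.0026 over 7 genes, all bounded within 1.5-fold. Of the 5 horizontal basal cell genes 4 were lower, among them Krt14, a basal keratin, at 27.3, 25.3 and 27.6 CPM in wild type and 23.8, 24.4 and 22.2 CPM in heterozygous mice, without overlap (log2 fold change -0.19, edgeR unadjusted p 0.0167, adjusted p 1). All 9 bone and cartilage genes were higher, with a median of 0.12 and all bounded within 1.5-fold. Among them Sp7, the osteoblast transcription factor osterix, had a log2 fold change of 0.17 (edgeR unadjusted p 0.0223, adjusted p 1). Of 8 connective tissue genes 7 were higher, with Col1a1, a type I collagen chain, at 5137, 4297 and 4532 CPM in wild type and 5880, 4706 and 5079 CPM in heterozygous mice, overlapping groups (log2 fold change 0.17, edgeR unadjusted p 0.0445, adjusted p 1). The summed levels of both lists were highest in heterozygous replicate 1 or 3 and overlapped between genotypes. Without heterozygous replicate 1, 7 of the 9 bone and cartilage genes and 5 of the 8 connective tissue genes were higher and 0 were under an unadjusted p of 0.05 in edgeR. What part dissection plays in these lists was not tested.

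Several gland genes varied widely between mice of one genotype. Bpifb9b, a secreted gland protein, measured 1337, 776 and 4012 CPM in wild type and 2296, 2714 and 81.7 CPM in heterozygous mice, with a 95% interval from -2.25 to 1.71. The summed gland list ran from 1881 to 5666 CPM in wild type and from 865 to 4587 CPM in heterozygous libraries, lowest in heterozygous replicate 3. Of the neutrophil list, Ltf, lactoferrin, which gland cells also secrete, made up most of the sum, at 509, 611 and 799 CPM in wild type and 769, 847 and 266 CPM in heterozygous mice. It too was lowest in heterozygous replicate 3, where S100a9, a calcium-binding protein of neutrophils, was highest at 10.7 CPM beside 7.52 to 10 CPM in the other libraries. Sox9, a transcription factor of gland and duct cells, was the 1 gland gene under an unadjusted p of 0.05, with a log2 fold change of 0.28 and overlapping groups (edgeR p 0.0236, adjusted p 1). Of the 7 gland genes tested 5 were higher, with a median of 0.075. Without heterozygous replicate 1, 2 were higher and 5 lower, with a median of -0.061. In that fit 2 were under an unadjusted p of 0.05 in edgeR. Tuft cell, ciliated, glial, endothelial and macrophage genes were split in sign, with medians from -0.061 to 0.039 and 0 genes under 0.05. Chat, the acetylcholine-synthesising enzyme and a marker of tuft cells, was weakly expressed at 0.402, 0.305 and 0.541 CPM in wild type and 0.214, 0.151 and 0.237 CPM in heterozygous mice, a log2 fold change of -1.03 without overlap (edgeR unadjusted p 0.0941, adjusted p 1). Of the muscle genes, 4 were tested at under 5 CPM in sum, and of the erythroid genes only Alas2, the first enzyme of haem synthesis in red cells, was tested. Alas2 measured 7.75, 8.22 and 9.47 CPM in wild type and 8.58, 18.3 and 8.46 CPM in heterozygous mice. Its groups overlapped, and its log2 fold change of 0.47 came from heterozygous replicate 2.

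**Figure D5:**
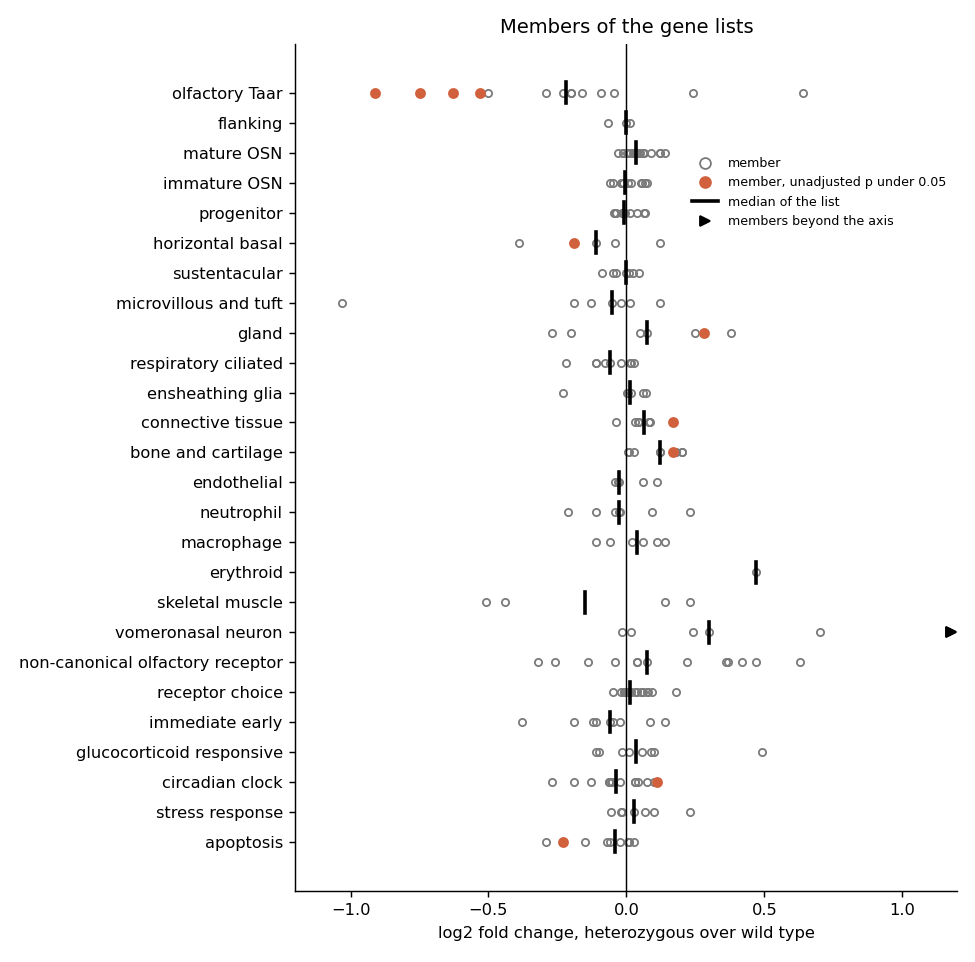
Log2 fold change of heterozygous over wild type for members of 26 gene lists (rows), as open circles, filled where the unadjusted edgeR p was under 0.05, with the median of each list as a bar and a triangle for 2 vomeronasal neuron genes with higher values beyond the axis. The Taar list has its median at -0.22, and the other medians lie between -0.15, for 4 skeletal muscle genes, and 0.12, except in 2 lists. The 7 vomeronasal neuron genes have a median of 0.30 (-0.053 without heterozygous replicate 1). The 1 erythroid gene, Alas2, is at 0.47, from a high level in heterozygous replicate 2.

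Vomeronasal genes were the group in which 1 library set the result. Of the type 1 and type 2 vomeronasal receptor genes, Vmn1r and Vmn2r, 71 of 81 and 93 of 98 tested had a higher level in heterozygous mice, and 8 and 11 had an unadjusted p under 0.05 in edgeR, with 0 called. Their sums in heterozygous replicate 1 were 19.7 and 44.6 CPM, beside at most 3.41 and 13.6 CPM in the other libraries of this comparison. Without that library 58 Vmn1r genes were tested, 16 higher and 21 lower, and 91 Vmn2r genes, 35 higher and 24 lower. The others tested had no read in the wild type or remaining heterozygous libraries, and 0 were under an unadjusted p of 0.05 in edgeR. Fewer genes were tested because some reached the 10 counts needed for testing only with that library. H2-M1, a gene of vomeronasal neurons, had 1 read in wild type libraries and 18, 0 and 2 reads in heterozygous libraries.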

How the data were processed

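Whole MOE of 9 mice was profiled by polyA-selected, strand-specific RNA-seq. The authors deposited raw read counts per gene for 24421 gene rows, and the 6 wild type and heterozygous columns carry the comparison. Per the submitters' processing notes, reads were trimmed with Trimmomatic 0.36, mapped to mm10 (GRCm38) with HISAT2 2.1.0 and counted with HTSeq 0.6.1p1, while the study's methods name featureCounts. The annotation and the strand setting are not given in the sources used here, so genes that overlap another gene are uncertain. A second table of normalized signal, which the authors deposited as counts divided by 1 DESeq2 1.20.0 size factor per library, was used only as a check. The 5 summary rows were left out, with 21.6 to 22.4% of reads in no gene, 16.9 to 19.4% not unique and 1.29 to 1.35% ambiguous. In 27 rows the gene name had become a date, and 2 names stood on 2 rows. RefSeq for GRCm38.p6 matched 24273 rows and gave positions and upstream windows.

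Genes with at least 10 counts over 9 libraries (20213) were fitted with edgeR 4.0.16 in R 4.3.3 (TMM, quasi-likelihood, genotype only, 9 libraries sharing the spread), with Benjamini-Hochberg adjustment over all genes and a threshold of 0.05. Intervals of 95% are Wald intervals of the unshrunk coefficient. CPM sums were compared by two-sided exact permutation. DESeq2 1.42.0, a 1.5-fold threshold, other size factors and filters, the 6 libraries alone, a replicate block, a vomeronasal covariate and leaving out each library were alternatives, and the fits were tested on simulated counts. Genes named are the Taar genes and their neighbours, called genes and the 10 smallest p in each direction, list members at the extremes or under an unadjusted p of 0.05 and the 3 OR genes with the smallest p in each direction, some of them as ranges only. The comparison, the lists and the tests were chosen with earlier results of these data known. Lists are described by counts and medians without a test.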

Additional observations from a re-analysis of the deposited data

How the results depend on the processing

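The count of 1 gene called became 0 with a 1.5-fold threshold, with only the 6 libraries compared and with the replicate block, 3 with DESeq2, by default or without independent filtering, and 0 to 1 without 1 library. Whether same-numbered mice share a litter or dissection day is not in the labels. Deviations of same-numbered wild type and heterozygous libraries correlated at 0.056, -0.16 and -0.11. Differently numbered pairs ranged from -0.038 to 0.17. With 3 libraries a genotype these values can neither show nor exclude a pairing. With this block 684 genes were under an unadjusted p of 0.05, 4 Taar genes among them, and the summed Taar change was -16.1% (exact sign-flip p 0.25, the smallest possible). Genes at an unadjusted p under 0.05 numbered 392 with DESeq2 in both modes and 430 to 978 without 1 library. Without 1 library the Taar median ranged from -0.29 to -0.16, the OR median from -0.022 to 0.055 and the summed Taar change from -17.5 to -14.7%. Genes bounded within 1.5-fold numbered 13685 to 14471 over all alternatives for which intervals were computed. Signs of single genes turned with the vomeronasal covariate for Taar7f (0.024) and Moxd1 (0.012), and without 1 library for Taar3 (-0.24 to 0.14), Vnn3 (-0.14 to 0.51), Ltf (-0.31 to 0.33), Taar7f (-0.18 to 0.071), Taar8a (-0.41 to 0.058), Stx7 (-0.015 to 0.031), Moxd1 (-0.038 to 0.035), Omp (-0.02 to 0.071) and Bpifb9b (-0.78 to 0.68). The cause was not tested. With 3 mice a group, depth limits what can be said of genes under 1.81 CPM, of which 2.53% were bounded within 1.5-fold.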

Other observations

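Heterozygous Taar levels were also set beside the midpoint between the wild type and homozygous means, the level that equal contributions of both enhancer copies would give. For the sum of the 14 Taar genes the midpoint was 33.4 CPM, and all 3 heterozygous libraries lay above it, at 36.3 to 38.8 CPM. The heterozygous mean was above the midpoint for 13 of the 14 genes, and for 9 of them so was every heterozygous library. Some margins were small, at 0.0234 CPM for Taar8b and 0.125 CPM for Taar7f. Taar8a and Taar8c are among the 9, but their midpoints of 0.105 and 0.127 CPM were near the level of 3 reads. The heterozygous mean of Taar8c, 0.344 CPM, was also above its wild type mean of 0.228 CPM. Taar5 was close to it, with a heterozygous mean of 1.62 CPM beside a midpoint of 1.51 CPM and 1 library above. Taar2 and Taar9 were above it in all 3 libraries, with means of 1.94 and 2.4 CPM beside midpoints of 1.51 and 1.49 CPM. Taar7e was higher in homozygous mice, with a mean of 8.08 CPM beside 4.73 CPM in wild type, and its heterozygous mean of 5.6 CPM lay below the midpoint of 6.41 CPM with all 3 libraries below. For all 14 genes the heterozygous mean was thus nearer to the wild type than to the homozygous mean. The midpoint shares the wild type libraries with the fold changes and carries the error of 3 homozygous mice, so these are levels side by side without a test.

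Lists of genes that respond to handling, stress or time of day had median log2 fold changes from -0.060 to 0.033, with 0 members called by edgeR. Of the 14 circadian clock genes 6 were higher, with a median log2 fold change of -0.038, and Per3, a period gene, was the only member under an unadjusted p of 0.05, at 66.8, 68.1 and 63.3 CPM in wild type and 71.8, 75.5 and 67.4 CPM in heterozygous mice (0.11, edgeR p 0.0397, adjusted p 1). Of the 10 apoptosis genes 6 were lower, with a median of -0.040, Bcl2l11 being the only one under 0.05. The 7 stress response genes had a median of 0.027 and the 8 glucocorticoid responsive genes one of 0.033, with 0 under 0.05. Glucocorticoid responsive genes ran from -0.11 for Sgk1 to 0.49 for Zbtb16 (95% interval -0.11 to 1.08, overlapping groups). Without heterozygous replicate 1 their median was 0.027, and 1 of the 8 was under an unadjusted p of 0.05 in edgeR. Of the 9 immediate early genes, which neurons switch on after activity, 7 were lower, with a median of -0.060. Fos was the lowest, at 11.1, 12.6 and 11.4 CPM in wild type and 12.6, 7.18 and 7.2 CPM in heterozygous mice, overlapping groups (-0.38, edgeR unadjusted p 0.088, adjusted p 1). Without heterozygous replicate 1, the immediate early median was -0.20 and 3 of the 9 were under an unadjusted p of 0.05 in edgeR, beside 2.86% of all genes in the same fit.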
